A study of Homo sapiens with 3 samples.

Results

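The cells described here are 98 S cells and 163 M cells of the VCaP parental library, chosen from 997 kept cells of that library and 2888 kept cells of the series. S cells were selected on a high share of UMIs (unique molecular identifiers, each a counted transcript) from 8 replication genes (PCNA, MCM2, MCM3, MCM4, MCM5, MCM6, GINS2 and TYMS) together with a low share from 5 mitotic genes (UBE2C, CCNB1, CENPF, DLGAP5 and HMMR), and M cells on the opposite. An S cell lay in the top 25% of the replication share, at 1515.8 CPM (counts per 1000000 UMIs of the cell) or more, and below the median of the mitotic share, 399.6 CPM. An M cell lay in the top 25% of the mitotic share, at 2009 CPM or more, and below the median of the replication share, 517 CPM. The nearest cells outside these limits lay at 1515.7 and 1984 CPM for the upper limits, and the nearest cells inside the medians lay at 516.7 and 397.8. A further 293 cells, below both medians, are called low cells and served as a common reference, 11 cells were in the top 25% of both shares, and 432 cells fell in none of these sets. Since measured values chose the cells, all differences between the sets are descriptions, and the 13 genes of the rule are not counted as results.

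VCaP is an androgen-responsive prostate cancer cell line that carries a TMPRSS2-ERG fusion. VCaP parental was exposed to 0.1% DMSO, the drug's solvent, for 48 h. The series also holds VCaP-ENZ48, given 10 µM of the antiandrogen enzalutamide for 48 h, and LNCaP-ENZ168, another androgen-responsive prostate cancer line given 10 µM for 168 h; all 3 are labelled enzalutamide sensitive. Each is 1 Drop-seq library of 1 cell line in culture, so no test between conditions can be made, cells are not replicates, and all intervals given are 95% intervals for counting error alone.

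Proliferating cells copy their DNA in S phase and divide in M phase, with the gaps G1 and G2 between. Entry into S phase is driven by cyclin E with CDK2 and by E2F transcription factors, which switch on genes for origin licensing, the replication fork and nucleotide supply. Later, cyclins A and B with CDK1 and the kinases PLK1 and AURKA bring the cell into mitosis. Many of these late genes are held off until G2 through a promoter element called CHR (cell cycle genes homology region), often with CCAAT boxes beside it. Cells are not synchronized here, and each set is named after the genes that chose it. The stage of a cell was not measured apart from its transcripts, and G2 and M phase were not told apart.

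The promoters of 4 genes from the M side are shown first, because the CHR was held more often on the M side than among all tested genes. These are the 100 bases before the RefSeq start (GRCh38.p14), 5′ to 3′ on the gene's strand, for the genes with the largest ratio toward M cells whose stretch held a CHR, here TTTGAA or TTCGAA on either strand, in capitals.
PLK1 (chr16:23678789-23678888, plus strand): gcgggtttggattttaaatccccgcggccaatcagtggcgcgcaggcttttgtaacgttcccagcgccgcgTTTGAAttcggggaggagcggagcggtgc
PIF1 (chr15:64825648-64825747, minus strand): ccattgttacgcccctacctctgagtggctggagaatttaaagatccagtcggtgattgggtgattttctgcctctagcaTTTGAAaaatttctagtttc
CDC20 (chr1:43358881-43358980, plus strand): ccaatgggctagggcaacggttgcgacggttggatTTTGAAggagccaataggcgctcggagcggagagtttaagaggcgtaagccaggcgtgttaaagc
PRR11 (chr17:59155646-59155745, plus strand): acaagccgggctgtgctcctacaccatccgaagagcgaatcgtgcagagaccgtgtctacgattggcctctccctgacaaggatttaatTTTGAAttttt
PLK1 is a mitotic kinase, CDC20 activates the anaphase-promoting complex, PIF1 is a DNA helicase, and PRR11 was named through this choice after its values were seen. Each of the 4 held TTTGAA, which started 29 bases before the start in PLK1, 20 in PIF1, 65 in CDC20 and 11 in PRR11. From the S side, the 4 genes with the largest ratio whose stretch held an E2F motif (TTTCGCGC, TTTGGCGC, TTTCCCGC or TTTGCCGC, either strand) follow, with the motif in capitals.
DTL (chr1:212035648-212035747, plus strand): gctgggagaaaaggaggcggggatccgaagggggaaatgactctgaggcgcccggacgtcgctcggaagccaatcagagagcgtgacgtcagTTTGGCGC
CDCA7 (chr2:173354772-173354871, plus strand): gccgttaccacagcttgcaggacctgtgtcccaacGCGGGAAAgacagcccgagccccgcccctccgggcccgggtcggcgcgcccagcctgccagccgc
MCM7 (chr7:100101398-100101497, minus strand): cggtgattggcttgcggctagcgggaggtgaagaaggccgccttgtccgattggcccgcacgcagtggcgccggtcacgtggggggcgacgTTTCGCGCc
HELLS (chr10:94545688-94545787, plus strand): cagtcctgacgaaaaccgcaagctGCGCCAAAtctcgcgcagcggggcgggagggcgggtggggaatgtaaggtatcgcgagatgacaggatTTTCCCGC
DTL is the substrate receptor of the ligase that degrades licensing factors at the fork, CDCA7 and HELLS form a nucleosome remodeller, and MCM7 is a subunit of the replicative helicase. HELLS held the motif at 2 places and the other 3 genes at 1. In Gencode, the CDC20 stretch lay outside any exon, and the other 7 overlapped exons of transcripts of the same gene that start further upstream.

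Counted over whole promoters (250 bases before to 50 after the first listed start), a CHR was held by 49.3% of the genes at least 2-fold higher in M cells (101 of 205 with a sequence, of 244) and by 67.5% of those at least 4-fold higher (52 of 77, of 92). The share was 12.7% of all 4326 tested genes with a sequence and 16.6% of all 27305 promoters. CHR and CCAAT together were held by 59.7% of the 4-fold group, 6.01% of tested genes and 6.58% of all promoters. CCAAT alone (either strand) was held by 61.5% of the 2-fold M genes, 39.6% of tested genes and 35.7% of all promoters, and an E2F motif by 7.32%, 6.31% and 3.33%. The CHR matches of M-side promoters had a median position 34 bases before the start, against 127 bases before it over all promoters. For the S side only 103 of 131 genes (78.6%) had a sequence, under the 80% set as the minimum for shares, so the count of motifs there is void. A match to these letters is a description and not a bound site.

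The libraries held 1000 barcodes each. VCaP parental had 27348 genes and 19533049 UMIs, and the kept cells had a median of 17817 UMIs and 4277 genes. In that library 860 barcodes ended in the letter N, whose meaning is not given in the sources used here. Each library shared 1 barcode with the others. The 98 S cells held from 7073 to 58702 UMIs with a median of 17843.5, and the 163 M cells from 7235 to 58344 with a median of 18754. Summed, the sets held 1877196 and 3392996 UMIs, and the low cells 5187486. Genes per cell had medians of 4288.5 in S cells, 4351 in M cells and 4053 in low cells, and after thinning each cell to 8000 UMIs 2745, 2764 and 2710.5, without 3, 3 and 13 shallower cells. The mitochondrial share had medians of 5.82%, 5.55% and 6.61%. The 2 sets thus differed little in depth from each other.

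The labels were checked on cell cycle genes outside the rule, the S phase and G2M phase lists of the Seurat package, per cell in CPM of the cell. The 37 remaining S phase genes took from 2910 to 11081 with a median of 5654 in S cells, from 598 to 4345 with a median of 1787 in M cells, and from 119 to 2809 with a median of 916 in low cells. Of the 98 S cells, 81 lay above the highest M cell, and all 98 lay above the median of M cells. The 50 remaining G2M phase genes took from 6623 to 51394 with a median of 25901 in M cells, from 2110 to 10398 with a median of 4048 in S cells, and from 479 to 3983 with a median of 1709 in low cells. Of the 163 M cells, 160 lay above the highest S cell. The medians after thinning were 5625 for the S phase list in S cells and 25812.5 for the G2M list in M cells. S cells were thus not empty of G2M transcripts, and their median was above that of low cells. Markers of immune cells were nearly absent, and those of stromal and endothelial cells were low. Of 11 immune markers 5 were listed, with PTPRC, CD79A and LYZ at 0 in both sets and summed levels of 2.66, 0.884 and 1.73 CPM, here of the UMIs summed over the set, in S, M and low cells. Of 10 stromal and endothelial markers 7 were listed, at 18.6, 23.9 and 20.4 CPM, nearly all from LUM, with PDGFRB and PECAM1 at 0 in both sets. Basal and neuroendocrine markers were not absent. Of 9 given 7 were listed, at 115, 97.6 and 129 CPM in S, M and low cells, and CHGB alone passed the minimum for testing.

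**Figure D1:**
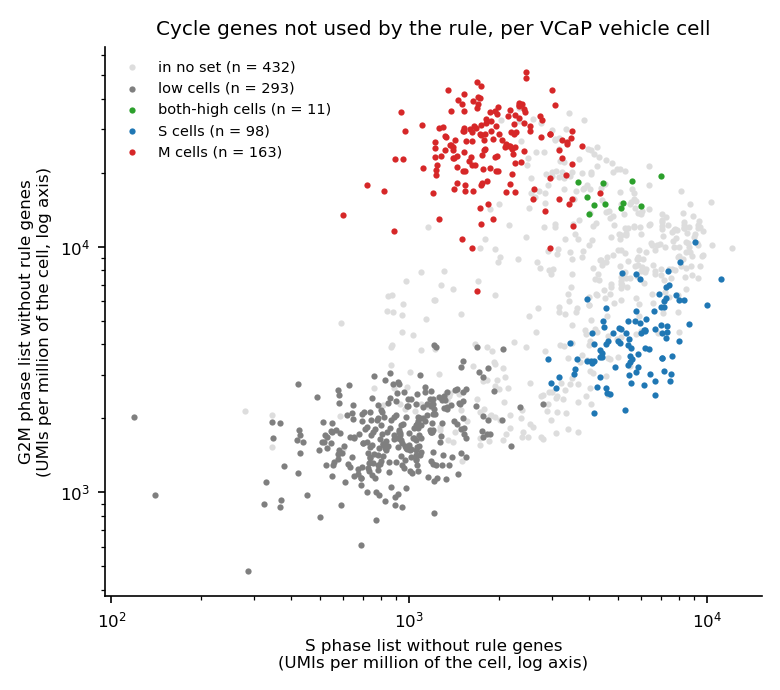
Each point is 1 VCaP parental cell, with the summed S phase list on the x axis and the G2M phase list on the y axis, both without the genes of the rule, in CPM of the cell on log axes. The 98 S cells lie at the lower right, the 163 M cells at the upper left and the 293 low cells at the lower left, and the 11 cells high in both shares lie between the S and M cells.

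Of 5274 genes whose CPM averaged 20 or more over the 2 sets, 131 were at least 2-fold higher in S cells (2.48% of the genes tested) and 244 at least 2-fold higher in M cells (4.63%). The log2 ratio of CPM + 1, S cells over M cells, had a median of 0.01 and quartiles of -0.25 and 0.26. The M side reached further: 92 genes were at least 4-fold higher in M cells against 21 in S cells, 47 against 9 at 8-fold, and 17 against 2 at 16-fold. The counting interval lay beyond 0 for all 131 and all 244. At this depth the 20 CPM minimum and the 2-fold limit make that certain, so it adds no support to the calls. When totals were taken without mitochondrial and ribosomal protein genes, the split became 211 and 251 of 6114 genes tested, with a median ratio of 0.09. Barcodes ending in N made up 90 of the 98 S cells and 141 of the 163 M cells, and the counts from the 9 S and 22 M cells chosen without such barcodes were 333 and 444, which held 84 and 200 of the genes above. The 18 cell cycle lists, by role and from Seurat, held 271 of the tested genes, and they held 53 of the 131 S-side genes and 105 of the 244 M-side genes.

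Among genes of at least 50 CPM in the higher set, CCNE2, the E2-type cyclin that partners CDK2 at the start of S phase, had the largest ratio toward S cells. It stood at 207 CPM (Poisson interval 187 to 228) in S cells, 11.5 (8.17 to 15.7) in M cells and 10.0 in low cells, a log2 ratio of 4.06 (interval 3.69 to 4.68). FAM111B, a serine protease, followed at 264 CPM in S cells, 19.2 in M cells and 11.95 in low cells, a log2 ratio of 3.72 (3.41 to 4.18). For CCNE2 the difference between M cells and low cells lay within counting error (log2 ratio 0.18, -0.44 to 0.82), while FAM111B was higher in M cells than in low cells (0.64, 0.16 to 1.21). UNG, the uracil DNA glycosylase that removes uracil from new DNA, was at 149 CPM in S cells, 12.7 in M cells and 35.7 in low cells. Its log2 ratio was 3.45 (3.08 to 4.05), and M cells lay below low cells by 1.42 on the log2 scale. Also among the 12 were WDR76, CHAF1B, CLSPN, CDC6, CDCA7, MCM7, MCM10 and PSMC3IP, with log2 ratios from 3.67 down to 2.39. CLSPN couples the fork to checkpoint signalling, and CDC6 loads the helicase at origins. PSMC3IP is a cofactor of homologous recombination.

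Toward M cells the largest ratio was that of KIF20A, a kinesin of the central spindle. It stood at 6.39 CPM (3.30 to 11.2) in S cells, 399 (378 to 421) in M cells and 3.86 in low cells, a log2 ratio of -5.76 (-6.92 to -5.15). PLK1 was at 4.26 CPM in S cells, 4.24 in low cells and 205 in M cells, a log2 ratio of -5.29 (-6.80 to -4.60). The PLK1 levels of S cells and low cells differed by less than counting error (log2 ratio 0.01, -1.37 to 1.23). AURKA, the centrosomal Aurora kinase, was at 22.9 CPM in S cells, 21.4 in low cells and 927 in M cells, a log2 ratio of -5.28 (-5.81 to -4.91). CENPE, a kinetochore motor, was at 20.8, 17.5 and 750 CPM in the same order. PTTG1, the securin that holds back separase, was at 30.4 CPM in S cells and 44.3 in low cells, against 852 in M cells. The others of the 12 were PIF1, KIF14, CDCA3, CDC20, NEK2, FAM83D and DEPDC1B, with log2 ratios from -4.82 to -4.18.

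**Figure D2:**
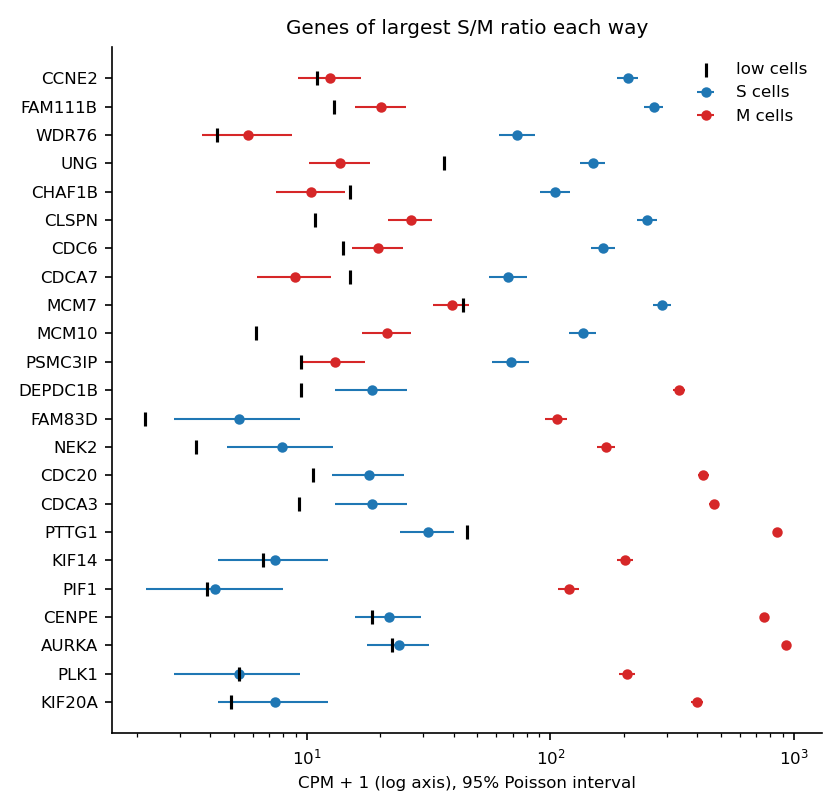
Levels of genes among the 12 with the largest ratio each way, 11 toward S cells and 12 toward M cells, as CPM + 1 on a log axis, with blue points for S cells, red points for M cells, 95% Poisson intervals as bars and black ticks for low cells. For the upper 11 genes S cells sit far to the right of both M cells and low cells, and for the lower 12 M cells sit far to the right of both other sets, with PLK1 at 4.26 CPM in S cells and 205 in M cells.

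The replication genes outside the rule were described by role, each list beside a median of 0.01 over all tested genes. Over all tested genes 2.48% were at least 2-fold higher in S cells and 4.63% in M cells. A single M-side gene among 19 lies near the latter share. Of 19 tested genes of origin licensing and firing, 8 were at least 2-fold higher in S cells and 1 in M cells, with a median log2 ratio of 0.66 (median of the members' interval bounds 0.38 to 1.26). The helicase subunit MCM7 was at 286 CPM in S cells, 38.3 in M cells and 42.8 in low cells. CDC45, which completes the helicase, was at 148, 28.0 and 8.29 CPM. The exception was DBF4, named after its values were seen, the activator of the CDC7 kinase, at 45.3 CPM in S cells and 145 in M cells, a log2 ratio of -1.66 (-2.03 to -1.34). The origin recognition subunits ORC2, ORC3, ORC4 and ORC5, named likewise, had ratios from -0.32 to 0.28.

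Of 21 polymerase and fork genes, 14 were at least 2-fold higher in S cells and none in M cells, with a median of 1.27 (0.94 to 1.77). DTL was at 45.3 CPM in S cells, 1.77 in M cells and 2.89 in low cells, a log2 ratio of 4.06 (3.50 to 6.16). RFC2, a subunit of the clamp loader, had 2.295 (1.99 to 2.69). FEN1, the nuclease that trims Okazaki fragments, had 2.16 (1.90 to 2.49). Of 11 genes of chromatin assembly and maintenance methylation, 7 were at least 2-fold higher in S cells and none in M cells, with a median of 1.34 (1.22 to 1.48). CHAF1B and CHAF1A, subunits of the histone chaperone CAF-1, had log2 ratios of 3.32 and 2.22. DNMT1, the maintenance methyltransferase, had 1.42 (1.22 to 1.63), at 261 CPM in S cells, 97.0 in M cells and 64.4 in low cells.

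Of 21 genes of replication-linked repair and the checkpoint, 11 were at least 2-fold higher in S cells and none in M cells, with a median of 1.22 (0.85 to 1.60). EXO1, a resection nuclease, stood at 46.3 CPM in S cells, 4.13 in M cells and 0.964 in low cells. MSH6, a mismatch sensor, had a log2 ratio of 2.03 (1.60 to 2.63), and the checkpoint kinase CHEK1 had 1.69 (1.45 to 1.96). With Seurat phases in place of the rule, the medians of the polymerase, chromatin assembly and repair lists were under 2-fold, at 0.92, 0.95 and 0.83. Among 7 tested G1/S cyclin and E2F programme genes, 3 were at least 2-fold higher in S cells and none in M cells (median 0.78, 0.57 to 1.25). These were CCNE2, CDK2 at 1.70 (1.28 to 2.23) and E2F3 at 1.25 (1.01 to 1.52). CCNE1 had no UMI in any of the 3 sets, which allows up to 3 UMIs per set, and E2F1 had 5 UMIs in S cells and 1 in M cells, so neither could be compared at this depth.

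Nucleotide supply was split differently. Of 21 tested genes, 5 were at least 2-fold higher in S cells and 1 in M cells, with a median of 0.53 (0.36 to 0.84). UNG, PPAT, DCTPP1, TK1 and CTPS1 made up the 5, and CTPS1 was named after its values were seen. TK1, the thymidine kinase, was at 276 CPM in S cells, 135 in M cells and 21.8 in low cells, a log2 ratio of 1.03 (0.85 to 1.22). RRM2, the inducible subunit of ribonucleotide reductase, was at 87.9 CPM in S cells, 69.8 in M cells and 6.17 in low cells, a log2 ratio of 0.33 (0.04 to 0.62). Both sets were thus far above low cells for RRM2, while they were close to each other. TYMS, thymidylate synthase, was at 111 CPM in S cells, 80.8 in M cells and 9.64 in low cells. As a gene of the rule it helped choose these sets, so its levels are not a result and do not bear on RRM2. DTYMK, the next kinase after thymidylate synthesis, was the 1 gene on the M side, at 142 CPM in S cells and 327 in M cells (log2 ratio -1.20, -1.40 to -1.01), named after its values were seen. Over all tested genes 4.63% were on the M side, and 1 of 21 lies near that share.

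Replication-dependent histone genes, whose transcripts mostly lack the poly(A) tail that Drop-seq captures, did not separate the sets. Of 54 genes given, 45 were found and 6 tested, none 2-fold different either way (median -0.05, -0.35 to 0.08). H4C3 was at 1703 CPM in S cells, 1492 in M cells and 436 in low cells. Histone genes, tubulins and ribosomal protein genes have near-identical copies, and their counts are uncertain to that extent.

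Of 23 G2/M cyclins and kinases, 19 were at least 2-fold higher in M cells and none in S cells, with a median of -2.73 (-3.32 to -2.10). CDK1, the mitotic cyclin-dependent kinase, was at 183 CPM in S cells, 874 in M cells and 22.7 in low cells, a log2 ratio of -2.25 (-2.42 to -2.10). CCNA2, cyclin A2, was at 31.96, 310 and 4.05 CPM. Both were therefore well above low cells in S cells as well. CCNB2, cyclin B2, was instead at 36.2 CPM in S cells and 28.3 in low cells, against 413 in M cells, a log2 ratio of -3.48 (-3.88 to -3.16). Of the 5 tested transcription factors of the late programme, FOXM1 alone was 2-fold different, at 24.0 CPM in S cells, 57.8 in M cells and 3.66 in low cells (log2 ratio -1.23, -1.77 to -0.80). The median of those 5 was -0.20 (-0.72 to 0.18).

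Spindle and motor genes lay almost wholly on the M side. Of 31 tested, 28 were at least 2-fold higher in M cells and none in S cells, with a median of -3.06 (-3.40 to -2.68). TPX2, the spindle assembly factor that activates AURKA, was at 79.9 CPM in S cells and 1022 in M cells, a log2 ratio of -3.66 (-3.92 to -3.44). Of 16 passenger complex and cytokinesis genes, 15 were at least 2-fold higher in M cells and none in S cells (median -3.12, -3.54 to -2.78). BIRC5, survivin, was at 124 CPM in S cells, 698 in M cells and 33.7 in low cells. AURKB, its kinase partner, had a log2 ratio of -2.59 (-3.32 to -2.10).

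The kinetochore list was divided. Of 27 tested genes, 17 were at least 2-fold higher in M cells and 2 in S cells, with a median of -1.46 (-1.76 to -1.28). CENPE, CENPA and KNL1 had the largest ratios toward M cells, at -5.11, -3.43 and -3.42. With Seurat phases in place of the rule the median was -0.99, just under 2-fold. The 2 genes on the S side were CENPU and CENPQ, both of the same inner-kinetochore subcomplex, and CENPQ was named after its values were seen. CENPU was at 583 CPM in S cells, 234 in M cells and 36.8 in low cells, a log2 ratio of 1.31 (1.18 to 1.45). CENPQ was at 82.0 CPM in S cells and 27.7 in M cells, a log2 ratio of 1.53 (1.19 to 1.95).

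Of 26 condensin, cohesin and chromosome protein genes, 10 were at least 2-fold higher in M cells and none in S cells (median -0.70, -1.04 to -0.49). TOP2A, the topoisomerase that untangles sister chromatids, was at 192 CPM in S cells, 3245 in M cells and 65.2 in low cells, a log2 ratio of -4.07 (-4.24 to -3.93). HMGB2, a chromatin protein, was at 831, 4254 and 112 CPM. The proliferation marker MKI67 had a log2 ratio of -2.77 (-3.04 to -2.53). Of 12 nuclear envelope genes, 4 were at least 2-fold higher in M cells and none in S cells (median -0.43, -0.80 to -0.20), with RANGAP1, TMPO and NUP37 leading. Of 12 genes of the anaphase ubiquitin system, 3 were at least 2-fold higher in M cells and none in S cells, and the median was -0.03 (-0.36 to 0.14). These were PTTG1, CDC20 and CDC27, while the other subunits of the complex lay near 0.

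**Figure D3:**
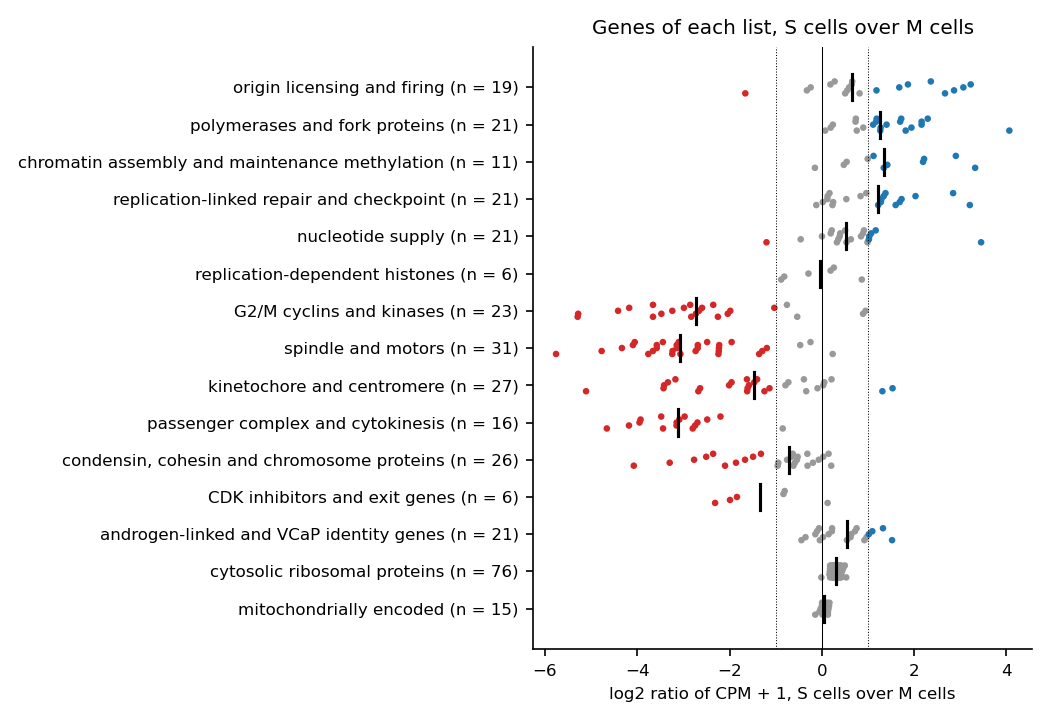
Each point is a tested gene of the named list, placed by its log2 ratio of CPM + 1 in S cells over M cells, with black bars for list medians and dotted lines at 2-fold. Spindle and cytokinesis genes have medians of -3.06 and -3.12, replication lists have medians from 0.53 to 1.34, and ribosomal protein genes stand in a narrow band around 0.30.

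Against the low cells, 202 of 5287 genes were at least 2-fold higher in S cells (3.82%) and 20 lower (0.378%), and 316 of 5264 were at least 2-fold higher in M cells (6%) and 64 lower (1.22%). These ratios share sums with the comparison of S and M cells and are no separate evidence. Of the 131 S-side genes, 80 were at least 2-fold higher in S cells than in low cells, 19 of these also in M cells, 13 were at least 2-fold lower in M cells than in low cells, and 51 were 2-fold above low cells in neither set. Of the 244 M-side genes, 202 were at least 2-fold higher in M cells than in low cells, 72 of them also in S cells, and 7 were at least 2-fold lower in S cells than in low cells. A further 72 genes were at least 2-fold above low cells in both sets and under 2-fold different between them. RRM2, PCLAF and H4C3 were among these 72. PCLAF, a PCNA-binding factor, was at 394 CPM in S cells, 283 in M cells and 46.7 in low cells. ESCO2, the cohesin acetyltransferase, named after its values were seen, was at 82.6, 103 and 5.398 CPM.

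**Figure D4:**
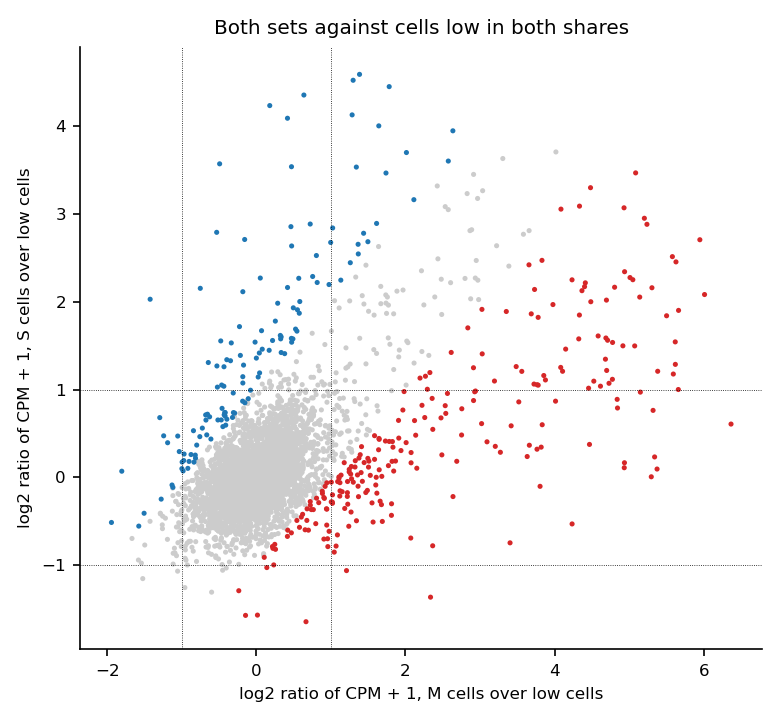
Each point is 1 of the 5274 tested genes, with the log2 ratio of M cells over low cells on the x axis and of S cells over low cells on the y axis, dotted lines at 2-fold, blue for genes at least 2-fold higher in S cells and red for those at least 2-fold higher in M cells. Red points reach 6.36 on the x axis and many also lie above 0 on the y axis, blue points gather at the left and reach upward, and grey points at the upper right include genes raised in both sets.

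Part of a mixed list of CDK inhibitors and cell cycle exit genes lay on the M side. Of 6 tested CDK inhibitor and exit genes, 3 were at least 2-fold higher in M cells and none in S cells, with a median of -1.34 (-1.73 to -1.02). CCNG2, an atypical cyclin tied to cell cycle arrest, was at 10.7 CPM in S cells, 56.9 in M cells and 35.5 in low cells. CDKN1B, the inhibitor p27, was at 20.8, 85.5 and 26.0 CPM, a log2 ratio of -1.99 (-2.56 to -1.55). MDM2, the ligase for p53, was at 41.6, 151 and 59.0 CPM. The list's median was under 2-fold with Seurat phases (-0.97) and at a minimum of 10 CPM (-0.83). In the small S and M sets of the treated libraries, described below, it was -1.47 in VCaP-ENZ48 and 0.38 in LNCaP-ENZ168. CDKN1A, the inhibitor p21, stayed under 2-fold, at 35.7 CPM in S cells, 63.1 in M cells and 19.9 in low cells (log2 ratio -0.80, -1.24 to -0.42). CCND1, cyclin D1, was at 488, 672 and 594 CPM.

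Some prostate identity genes had lower levels in M cells than in S cells. Of 21 tested androgen-linked and VCaP identity genes, 4 were at least 2-fold higher in S cells (NPY, STEAP1, TMPRSS2 and SLC45A3, the last named after its values were seen) and none in M cells, with a median of 0.54 (0.39 to 0.70). Against low cells the medians were -0.41 in S cells and -0.58 in M cells, although single members went either way. KLK2, the androgen-induced kallikrein, was at 1566 CPM in S cells, 826 in M cells and 2217 in low cells, a log2 ratio of 0.92 (0.85 to 1.00). NPY, a secreted neuropeptide, was at 3179, 1106 and 2295 CPM, a log2 ratio of 1.52 (1.46 to 1.58), and was higher in S cells than in low cells (0.47, 0.42 to 0.51). ERG, the fusion-driven factor, was at 99.6, 50.4 and 162 CPM.

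Ribosomal protein genes moved little but together in VCaP parental. Of 76 tested, 75 had a higher level in S cells and none reached 2-fold, with a median of 0.30 (0.24 to 0.37), and they summed to 219090 CPM in S cells, 179635 in M cells and 222183 in low cells. RPL21 was the 1 gene not higher in S cells, named after its values were seen. In the small S and M sets of the treated libraries, the ribosomal protein median was 0.40 in VCaP-ENZ48 and -0.31 in LNCaP-ENZ168. Mitochondrially encoded genes had a median of 0.04 (-0.01 to 0.09), with none of 15 at 2-fold. The same held for immediate early and heat shock genes (0.03, -0.07 to 0.16, 15 genes), splicing factors (-0.11, -0.38 to 0.12, 23 genes) and cholesterol synthesis (-0.18, -0.41 to 0.02, 16 genes). Of 17 ER folding genes, 1 was at least 2-fold higher in M cells and none in S cells (median -0.37, -0.66 to -0.14). Over all tested genes 4.63% were on the M side, and 1 of 17 lies near that share. That was the ER chaperone HSP90B1, at 2058 CPM in S cells, 4515 in M cells and 2657 in low cells. The median of the ER folding list was -0.51 in VCaP-ENZ48 and 0.31 in LNCaP-ENZ168. Of 9 basal and neuroendocrine markers 1 was tested, CHGB, at 0.16 (-0.15 to 0.48).

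The marker lists that came with the study, derived on other LNCaP libraries, share many of these genes. The list called Persist is an earlier published gene set that the paper named for its association with cluster 11. It had 10 of 12 tested genes at least 2-fold higher in M cells and none in S cells (median -2.73, -2.98 to -2.51). The markers of cluster 5 had 81 of 155 on the M side and 3 on the S side (median -1.19, -1.41 to -0.98), and those of cluster 11 had 139 of 247 and 5 (median -1.32, -1.61 to -1.06), and with Seurat phases these medians were under 2-fold, at -0.72 and -0.91. The markers of cluster 8 went the other way, with 31 of 75 on the S side and 4 on the M side (median 0.74, 0.48 to 0.99). The markers of cluster 9 held 33 S-side and 67 M-side genes of 247 (median -0.09, -0.38 to 0.11). The Seurat lists gave 28 of 35 on the S side for S phase (median 1.87, 1.46 to 2.39) and 48 of 49 on the M side for G2M phase (median -2.69, -3.06 to -2.45).

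In the treated libraries the rule could not give S cells from their own quartiles, since 66.6% of VCaP-ENZ48 cells and 52.4% of LNCaP-ENZ168 cells had no UMI of a mitotic rule gene, so the median of that share was 0. With the limits of VCaP parental, VCaP-ENZ48 held 13 S cells (1.37% of 947, exact binomial interval 0.733 to 2.34%) and 8 M cells (0.845%, 0.365 to 1.66%). LNCaP-ENZ168 held 26 S cells (2.75% of 944, 1.81 to 4.01%) and 15 M cells (1.59%, 0.892 to 2.61%). VCaP parental held 9.83% and 16.3%, but these shares follow largely from the rule, whose limits are quartiles and medians of that library. Differences in these shares between libraries were not tested. The sets of the treated libraries are too small for the levels of most single genes. The 13 S cells of VCaP-ENZ48 were deeper (median 30988 UMIs) than its 8 M cells (10745.5), and the libraries differ in depth.

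Directions were compared there for every S-side and M-side gene of VCaP parental, with no minimum of UMIs, a choice made after seeing the data. In VCaP-ENZ48, 125 of the 131 S-side genes had a higher level in S cells, where 53.5% of all 5274 genes did, and 230 of the 244 M-side genes had a higher level in M cells, where 46.5% of all did. In LNCaP-ENZ168 these counts were 97 of 131 (53.8% of all) and 199 of 244 (43.4% of all), and 8 genes of each side had no UMI in either set. Single genes rested on few UMIs, with medians over both sets of 26 and 31 for the S-side and M-side genes in VCaP-ENZ48 and of 15 and 16 in LNCaP-ENZ168, so many of these directions lie within counting error.

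**Figure D5:**
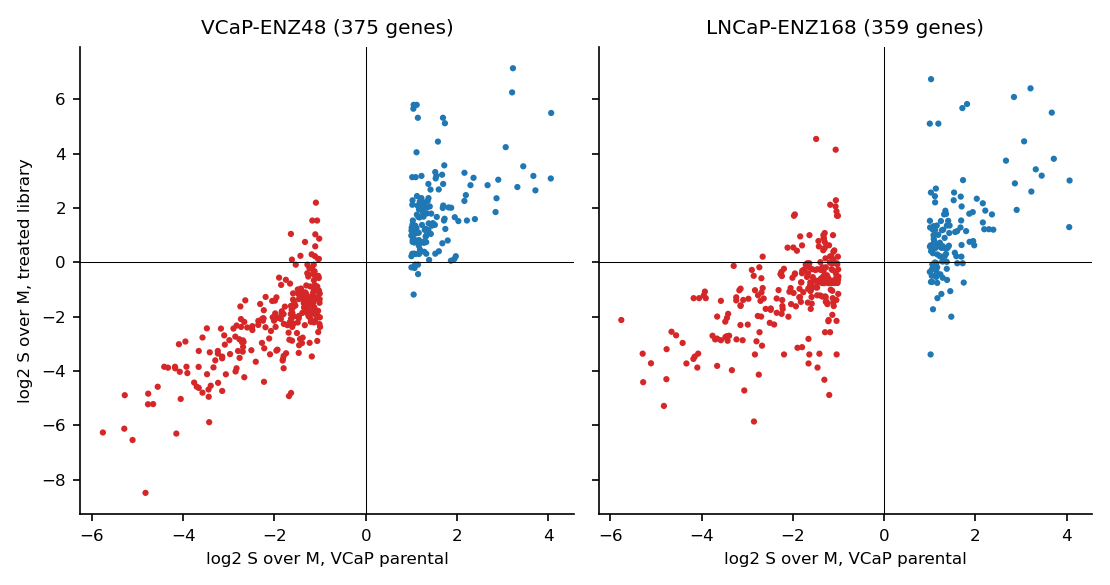
The log2 ratio of S cells over M cells in VCaP parental (x axis) and in each treated library (y axis), for the genes at least 2-fold different in VCaP parental with at least 1 UMI in the treated sets. In VCaP-ENZ48 125 of 131 blue genes lie above 0 and 230 of 244 red genes below it, and in LNCaP-ENZ168, where 8 genes of each side are not drawn, 97 blue genes lie above 0 and 199 red genes below it.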

How the data were processed

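Drop-seq gave 3 single-cell libraries of cell lines, 1 for each group. Reads were mapped by the authors to GRCh38 (STAR 2.7.3a) and counted with Drop-seq tools 2.3.0 and Picard 2.18.22 at default settings, with Gencode 33 and 1000 expected cells. What the authors deposited are UMI counts of each gene in each barcode, not normalized. The authors filtered cells on genes, molecules and mitochondrial share for their own Seurat work, and whether that was applied to the deposited Drop-seq counts is not given in the sources used here. Kept cells had at least 500 UMIs, at least 300 genes and at most 25% of UMIs from mitochondrial genes. No doublet caller was run. Strand and multi-mapping settings are not given in the sources used here, so overlapping genes cannot be told apart.

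UMIs were summed over the cells of a set, scaled to CPM and compared as log2 ratios of CPM + 1, S cells over M cells. A fold change on this scale understates that of low genes. Genes were tested at a mean of at least 20 CPM without the 13 rule genes, and "called" means at least 2-fold, a log2 ratio of 1. Ratios carry exact conditional intervals without the pseudocount, levels exact Poisson and shares Clopper-Pearson intervals, and a count of 0 allows up to 3 UMIs. With 1 library per group no test was made and no p-value is given. The members and lists were chosen with earlier results of these data known. Named genes were the 12 largest ratios each way at 50 CPM or more in the higher set, a set of chosen cycle and VCaP genes, and up to 3 leading members of each list, of which some are not reported here. Replication and mitosis lists by role, 33 lists in all with those of Seurat, other cell types and the study, came to 1526 of 1548 entries found. Promoters came from RefSeq (GRCh38.p14), with the first listed start of a gene, older symbols matched through RefSeq synonyms. The script was tested on simulated counts. Python 3.11.15, numpy 2.4.6, scipy 1.17.1, pandas 2.3.3, R 4.3.3, edgeR 4.0.16 (TMM factors only) and Seurat 5.3.0 (phases and gene lists) were used. Alternatives covered cell filters, scaling, pseudocount, expression minimum and the rule's limits.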

Additional observations from a re-analysis of the deposited data

Results flagged for a closer look

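CCND1, cyclin D1, had ratios of opposite sign in 2 libraries, with both counting intervals beyond 0; the difference was not tested. The log2 ratio of S cells over M cells was -0.46 (-0.57 to -0.35) in VCaP parental and 0.90 (0.25 to 1.60) in LNCaP-ENZ168, where it rested on 83 UMIs in S cells and 26 in M cells. In VCaP-ENZ48 it was -0.10 (-0.63 to 0.45). The libraries differ in line and in treatment, which cannot be told apart here. Only the largest ratios, the rule genes and the chosen genes were searched, and CCND1 was not alone. UBE2T had -0.67 (-0.83 to -0.50) in VCaP parental and 0.86 (0.11 to 1.67) in LNCaP-ENZ168. RAD51AP1 had 0.23 (0.02 to 0.44) and -1.05 (-2.05 to -0.10). BTG3, an M-side gene, had its interval on the S side in LNCaP-ENZ168. These genes were named after their values were seen.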

How the results depend on the processing

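With 1 library per group only counting error can be given, no library can be left out, and nothing pairs the samples. No paired analysis was possible because every group is a single library. The main counts were 131 genes at least 2-fold higher in S cells and 244 in M cells. Without barcodes ending in N, which left 9 S cells and 22 M cells, they were 333 and 444, of which 84 and 200 were among the main calls. The top 10% of one share with the lowest 25% of the other (10 and 27 cells) gave 572 and 645, with Seurat S and G2M phase medians of 2.695 and -3.08. The top 50% with below the median (205 cells each) gave 61 S-side genes and an S phase median of 1.29. Seurat phases in place of the rule gave 49 and 152, with medians of 1.37 and -1.79. Shares from 4 S and 2 M genes gave a G2M median of -2.31. Minimums of 10 and 50 CPM gave 220 and 55 S-side genes, and 50 CPM gave 150 M-side genes, since the number of genes tested changed to 7239 and 2958. Totals without mitochondrial and ribosomal protein genes gave 211 S-side genes, with 6114 genes tested. The Seurat phases, whose lists share genes with the rule, placed 98 of 98 S cells in S and 162 of 163 M cells in G2M. The other alternatives kept both counts within 1.5 times, TMM with 99 and 290. None of the 46 named gene ratios or 13 list medians at 2-fold changed sign, and the other called genes were not followed by name. Of the 46 named genes at 2-fold, 8 fell under it in at least 1 alternative: CENPU, CHEK1, DNMT1, FOXM1, NPY, TK1, TMPRSS2 and TUBA1B. Of the 13 list medians, 7 did, all with Seurat phases: polymerases and fork, chromatin assembly, repair and checkpoint, kinetochore, CDK inhibitors, and the study's clusters 5 and 11. The signs of H4C3, PCLAF and RRM2, all under 2-fold, changed in at least 1 alternative, as did those of 4 list medians under 2-fold (anaphase ubiquitin system, immediate early and heat shock, mitochondrially encoded and histones).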

Other observations

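Some genes on the M side lay outside all 18 cell cycle lists, 139 of 244, as did 78 of 131 on the S side. NMU, the neuropeptide neuromedin U, was at 16.5 CPM in S cells, 227 in M cells and 44.1 in low cells, a log2 ratio of S over M of -3.70 (-4.35 to -3.26), and it was chosen after its values were seen. NMU was thus also lower in S cells than in low cells, by 1.37 on the log2 scale.

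The 11 VCaP parental cells in the top 25% of both shares had a median depth of 20589 UMIs, from 14152 to 25854. Their summed levels did not follow 1 pattern. They lay between those of the S and M cells for some genes, such as CCNE2 (102 CPM), PLK1 (44.3 CPM), AURKA (323 CPM) and TOP2A (1567 CPM). For other genes they lay above both sets, such as H4C3 (3385 CPM), PCLAF (655 CPM), TK1 (407 CPM) and RRM2 (155 CPM). Whether any of these barcodes held 2 cells was not tested.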
